A study of Mus musculus with 10 samples.

Results

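The transcripts of 8 genes that mark the meninges and the mesenchyme of the embryonic head were followed in mouse cortex at E12.5. The genes are Col1a1, Col1a2, Col3a1, Dcn, Lum, Foxc1, Foxd1 and Twist1. They were matched by symbol, all 8 were found among the 56748 gene identifiers of the count files, and all 8 passed the filter on low counts that left 18163 genes for testing. The libraries fall into 2 groups of 5, cortex of embryos labelled Emx2 KO and cortex of embryos labelled WT. Emx2 is a homeobox transcription factor of the dorsal telencephalon. The labels give no allele, strain, sex or litter, say nothing of whether the knockout is confined to a tissue, and do not state how many embryos stand behind the libraries. The p-values therefore cover variation among these libraries, which may be technical in part.

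The meninges are the connective tissue layers that wrap the brain, and over the forebrain they derive largely from the neural crest. Their fibroblasts, like other mesenchymal cells, secrete fibrillar collagens and the small leucine-rich proteoglycans that bind collagen fibrils. They also make signals for the cortex beneath, among them retinoic acid and the chemokine encoded by Cxcl12. Foxc1 is required in mice for the meninges to form over the forebrain, and loss of Twist1 disturbs the head mesenchyme.

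Total counts ran from 9720840 to 35674113 per library. They fell into 5 large libraries (24856930 or more counts, 3 knockout and 2 wild type) and 5 small ones (14700549 or fewer, 2 knockout and 3 wild type). Levels are given as CPM (counts scaled to a common library total) with totals scaled by TMM, a method that sets the bulk of genes equal between libraries. Emx2 itself lay at 123 ± 21.1 CPM in knockout and 186 ± 12.8 CPM in wild type (SD, n = 5 each), without overlap between the groups, so transcripts of the targeted gene were lower but present. The tissue label was met by genes of the cortical neuroepithelium such as Pax6, whose 12 listed members summed to between 3653 and 4889 CPM in every library. The skeletal muscle gene Myf5 and the epidermal keratin gene Krt5 had 0 counts in all 10 libraries. Other genes of their lists had counts, among them Pax7 (4.15 ± 1.88 CPM in wild type) and Krt18 (3.05 ± 0.626 CPM in wild type). Myod1, Myog, Myf6, Krt14, Krt15 and Trp63 of these lists were below the low-count filter, with group means of at most 0.346 CPM. Pax7, Krt18 and the genes below the filter were named after their values were seen. Which cells the Pax7 and Krt18 transcripts came from was not tested.

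The 300-base windows around the annotated start (250 bases before to 50 after, RefSeq, build GRCm38.p6) are shown for 3 of the 5 members that have one: a pair of fibrillar collagen genes whose levels are compared below, and Twist1, whose protein binds the E-box. Capitals mark matches to TATAAA, searched on both strands. They also mark matches to CCAAT on either strand. The third motif marked is the E-box, spelled CANNTG, which reads the same on both strands. In the Col3a1 window TATAAA and an E-box adjoin without overlap and form a single run of capitals.
Col1a2, chr6:4505368-4505667, plus strand: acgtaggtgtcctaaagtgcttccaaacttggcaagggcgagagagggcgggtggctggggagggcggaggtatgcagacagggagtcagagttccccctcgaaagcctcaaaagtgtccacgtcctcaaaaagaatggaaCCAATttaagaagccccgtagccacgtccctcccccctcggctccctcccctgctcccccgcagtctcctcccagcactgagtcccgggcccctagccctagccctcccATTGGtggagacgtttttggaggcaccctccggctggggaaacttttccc
Col3a1, chr1:45311288-45311587, plus strand: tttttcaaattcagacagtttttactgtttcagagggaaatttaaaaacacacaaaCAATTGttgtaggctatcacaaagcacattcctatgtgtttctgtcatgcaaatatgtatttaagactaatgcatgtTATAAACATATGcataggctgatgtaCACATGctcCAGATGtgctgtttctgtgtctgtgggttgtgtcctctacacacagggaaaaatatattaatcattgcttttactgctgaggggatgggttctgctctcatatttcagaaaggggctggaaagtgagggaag
Twist1, chr12:33957421-33957720, plus strand: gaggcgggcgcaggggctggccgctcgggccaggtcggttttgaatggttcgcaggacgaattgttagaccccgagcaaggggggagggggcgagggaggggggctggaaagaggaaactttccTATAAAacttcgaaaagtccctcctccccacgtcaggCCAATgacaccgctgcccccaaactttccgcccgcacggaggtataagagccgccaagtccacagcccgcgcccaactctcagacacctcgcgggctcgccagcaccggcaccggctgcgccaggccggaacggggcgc
The Col3a1 window held 4 E-boxes and 0 CpG dinucleotides, whereas the Col1a2 window held 0 E-boxes, 2 CCAAT motifs and 13 CpG dinucleotides. The Twist1 window had 27 CpG dinucleotides, 0 E-boxes, 1 TATAAA and 1 CCAAT motif. Of 32851 windows of this length, 72.3% held an E-box, 37.4% a CCAAT motif and 13.6% TATAAA, and the median number of CpG dinucleotides was 7. A match describes these letters and says nothing of whether a factor binds them. The windows that are not printed held 32 CpG dinucleotides for Foxc1 and 15 for Foxd1.

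The fibrillar collagen genes showed no difference between the genotypes that passed the test, and the libraries of both genotypes overlapped for each of them. Col1a1, on chromosome 11, encodes the more numerous chain of type I collagen, the main fibril protein of meninges, dermis and bone. It stood at 172, 134, 136, 129.8 and 167 CPM in knockout replicates 1 to 5 and at 148, 139, 150.4, 141 and 86.0 CPM in wild-type replicates 1 to 5. Wild-type replicate 5 was the lowest of all libraries, and the other 4 wild-type libraries lay within the range of the knockout ones. The log2 fold change, knockout over wild type throughout, was 0.15 ± 0.15 (SE, edgeR quasi-likelihood test, adjusted p = 0.539), and its 95% interval ran from -0.18 to 0.48. Without wild-type replicate 5 the log2 fold change was 0.04 (adjusted p = 0.848).

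Col1a2, on chromosome 6, encodes the other chain of type I collagen. Its levels were 106, 85.2, 83.3, 85.4 and 113 CPM in the knockout libraries and 104, 97.0, 94.6, 84.3 and 62.9 CPM in the wild-type libraries, in order of replicate. Wild-type replicate 5 was again the lowest and knockout replicates 1 and 5 were the highest. The log2 fold change was 0.09 ± 0.14 (edgeR adjusted p = 0.701, 95% interval -0.21 to 0.39). Col3a1, on chromosome 1, encodes the chain of type III collagen, which forms fibrils together with type I in soft tissue. Its levels were 319, 242, 256, 344 and 315 CPM in knockout and 336, 326, 295, 300.2 and 251 CPM in wild type. Knockout replicates 2 and 3 and wild-type replicate 5 made up the low end, and the log2 fold change was -0.03 ± 0.11 (edgeR adjusted p = 0.882). Its interval, -0.27 to 0.20, is the narrowest of the 8 genes and corresponds to a ratio of knockout to wild type between 0.830 and 1.15.

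The small leucine-rich proteoglycan genes Dcn and Lum, neighbours on chromosome 10, both had log2 fold changes below 0, as did Twist1, Col3a1 and Foxc1, and Dcn alone of the 8 genes passed the test. Dcn encodes decorin, which binds collagen fibrils and the growth factor TGF-beta. It stood at 19.0, 13.9, 14.8, 18.7 and 23.0 CPM in the knockout libraries and at 22.3, 26.7, 22.3, 24.1 and 20.7 CPM in the wild-type libraries. All 5 knockout libraries were below the wild-type mean of 23.2 ± 2.28 CPM, but knockout replicate 5 lay above 3 of the wild-type libraries, so the groups overlapped. Dcn fell by 0.38 on the log2 scale (SE 0.13, 95% interval -0.66 to -0.11, edgeR adjusted p = 0.0488). In a bulk sample such a difference can come from fewer cells of a type or from less RNA per cell, and these cannot be told apart here.

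The call for Dcn is marginal. With edgeR's moderation of dispersions set to its ordinary instead of its robust form, adjusted p was 0.0509. It was 0.0832 with the title code as a block and 0.0711 with size class as a block. When 1 library was left out in turn, Dcn passed in 1 of 10 fits, the one without knockout replicate 5 (adjusted p = 0.00899). That was the highest knockout library for Dcn, and taking it out widens a decrease of necessity. In the 9 others, each leaving out one of knockout replicates 1 to 4 or wild-type replicates 1 to 5, edgeR's adjusted p ran from 0.0578 to 0.108. The direction was lower in all 25 alternatives, with log2 fold changes from -0.57 to -0.30, and DESeq2 and limma-voom placed the gene past the threshold (adjusted p = 0.0216 and 0.0239).

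Lum encodes lumican, a keratan sulphate proteoglycan that spaces collagen fibrils. Its levels were 89.1, 48.8, 51.3, 74.7 and 63.7 CPM in knockout and 94.0, 78.1, 76.1, 83.3 and 72.8 CPM in wild type. Knockout replicates 2, 3 and 5 lay below every wild-type library, while knockout replicates 1 and 4 lay among them. The log2 fold change was -0.30 ± 0.16 (edgeR adjusted p = 0.220, 95% interval -0.65 to 0.05). Without knockout replicate 1, the highest knockout library, it was -0.44 ± 0.13 and passed (adjusted p = 0.0333), though taking out that library widens a decrease of necessity. In the 9 fits that each left out another library, edgeR's adjusted p ran from 0.195 to 0.397.

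None of the 3 transcription factor genes passed the test, and all 3 had their highest library and their lowest library within the knockout group. Foxc1 and Foxd1, both on chromosome 13, encode forkhead factors, and Foxd1 is also known from the embryonic ventral diencephalon and the kidney stroma. Foxc1 stood at 42.4, 27.7, 21.7, 33.8 and 28.0 CPM in knockout and at 37.1, 37.6, 29.5, 28.3 and 23.6 CPM in wild type. Knockout replicate 1 was the highest and knockout replicate 3 the lowest, with the 5 wild-type libraries between them. The log2 fold change was -0.02 ± 0.18 (edgeR adjusted p = 0.971, 95% interval -0.41 to 0.38).

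Foxd1 stood at 20.2, 12.0, 7.50, 12.8 and 10.9 CPM in the knockout libraries and 11.6, 12.1, 9.94, 9.83 and 14.2 CPM in the wild-type libraries. The level in knockout replicate 1 was well above the other 9 libraries. Its log2 fold change of 0.17 ± 0.22 did not pass (edgeR adjusted p = 0.655), the interval from -0.32 to 0.66 was the widest of the 8 genes, and the value without knockout replicate 1 was -0.07.

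Twist1, on chromosome 12, encodes a basic helix-loop-helix factor of mesenchyme and neural crest. It was the least abundant of the 8 by CPM, at 8.60, 4.20, 3.42, 5.65 and 4.78 CPM in knockout and 6.75, 7.26, 6.09, 6.50 and 7.02 CPM in wild type. Knockout replicates 2 to 5 were all below the lowest wild-type library, and knockout replicate 1 was above the highest. The log2 fold change was -0.31 ± 0.21 (edgeR adjusted p = 0.330, 95% interval -0.76 to 0.14). Without knockout replicate 1, the highest library, it was -0.57 ± 0.15, which passed (adjusted p = 0.0181), though taking out that library widens a decrease of necessity. In the 9 fits that each left out another library, edgeR's adjusted p ran from 0.319 to 0.541.

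**Figure D1:**
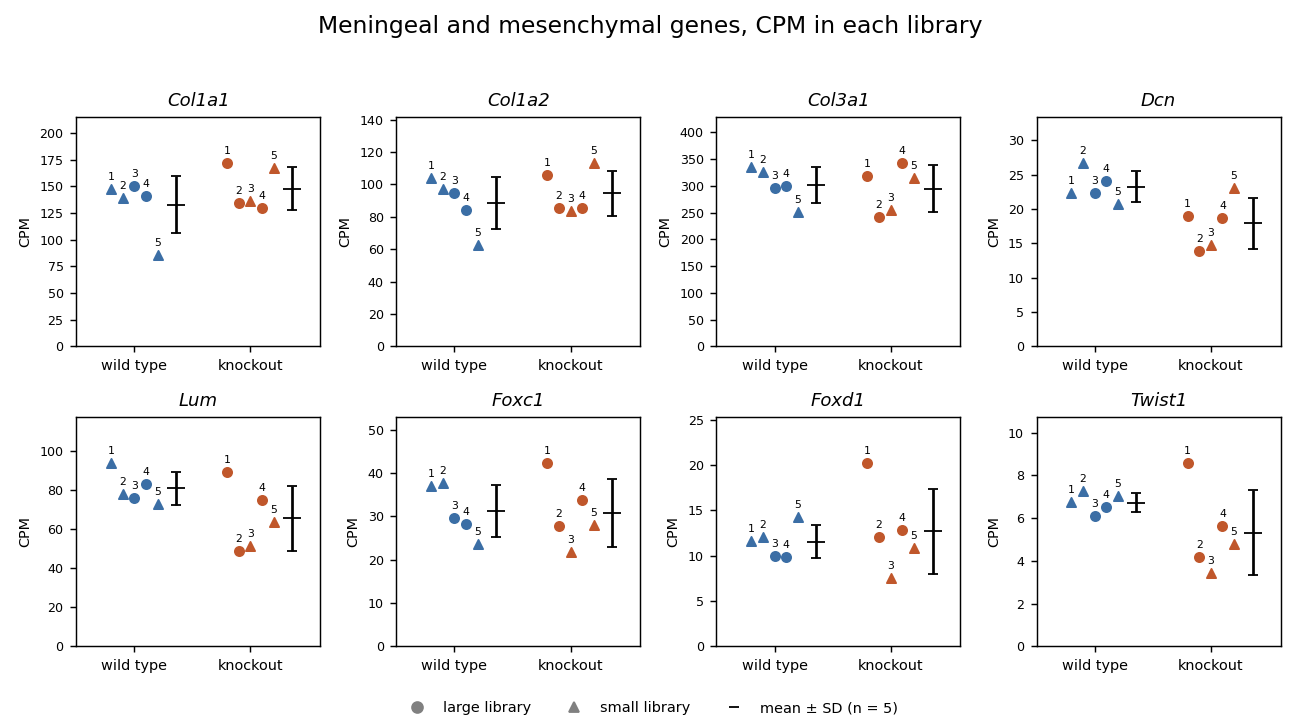
Level in CPM (vertical axes from 0) of each of the 8 genes in the 5 wild-type and 5 knockout libraries; numbers are replicates, circles large and triangles small libraries, and the bars give mean ± SD. The genotypes overlap for all 8 genes, wild-type replicate 5 is low for Col1a1 and Col1a2, and knockout replicate 1 stands at the top for Foxc1, Foxd1 and Twist1.

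Counted together, 1 of the 8 genes was lower in knockout (Dcn) and 0 were higher by edgeR at an adjusted p under 0.05, against 9.33% of all 18163 genes tested that were lower and 12.9% that were higher. At an unadjusted p under 0.05 the numbers were again 1 lower and 0 higher, against 33.8% of all genes tested in either direction. DESeq2 also called 1 lower and 0 higher (background 10.9% lower), as did limma-voom (10.5% lower). The median log2 fold change of the 8 genes was -0.02, beside -0.01 for all genes tested. In all 8 the genotypes overlapped, whereas they did not overlap for 16.7% of all genes tested. Without knockout replicate 1 the genes past the threshold were Lum and Twist1, both lower, and Dcn missed it (edgeR adjusted p = 0.0600). Of all genes in that fit 9.61% were lower. Knockout replicate 1 was the highest knockout library for Lum and Twist1, so leaving it out widens their decreases of necessity. Leaving out any one of knockout replicates 2, 3 and 4 or wild-type replicates 1 to 5 left 0 of the 8 past the threshold.

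**Figure D2:**
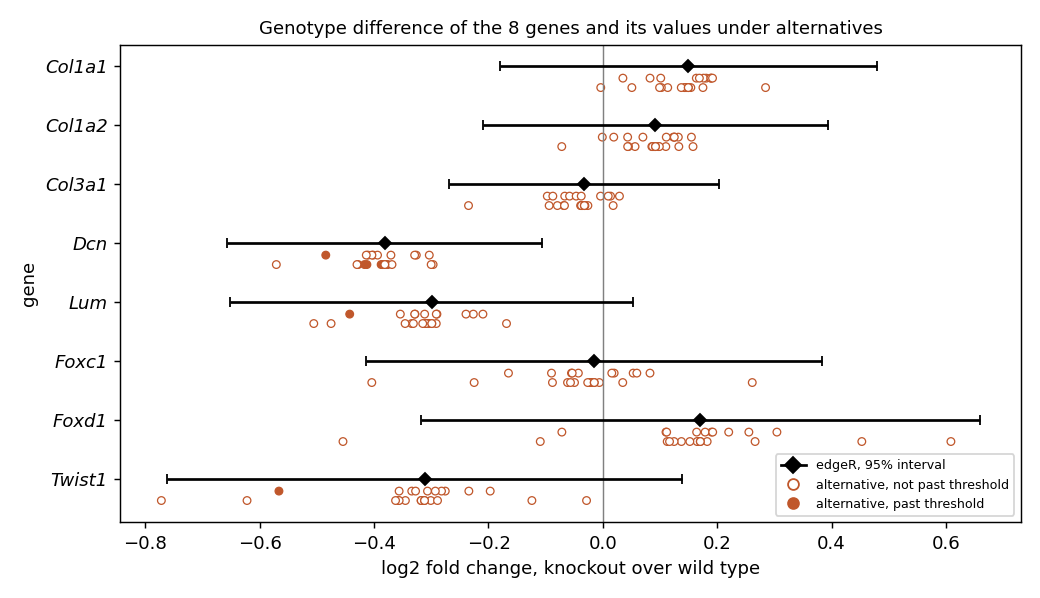
Log2 fold change, knockout over wild type, of the 8 genes: diamonds with 95% intervals for the edgeR fit of all 10 libraries, and circles for 25 alternatives (upper row, 1 library left out; lower row, other settings), filled where past the threshold. Dcn (-0.38) is the only gene whose interval excludes 0, and the alternatives of the 3 collagen genes, Foxc1 and Foxd1 lie on both sides of 0.

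The spread between libraries was larger in knockout than in wild type for 6 of the 8 genes, as a coefficient of variation (SD over mean). For Twist1 it was 37.6% in knockout and 6.75% in wild type, and for Foxd1 36.9% and 15.7%. Lum (25.6% against 10.2%) and Dcn (20.5% against 9.82%) showed the same order. Col1a1 and Col1a2 (14.8% against 18.1% for the latter) showed the opposite order, with wild-type replicate 5 low for both. Across the 16038 genes of at least 1 CPM the medians were 9.91% in knockout and 9.88% in wild type, and 51.0% of genes varied more in knockout. The difference in spread was not tested.

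Much of that spread belonged to single libraries. Knockout replicate 1 was the highest of all 10 libraries for 4 genes (Col1a1, Foxc1, Foxd1 and Twist1) and among the highest pair for 6. Knockout replicate 3 was the lowest for Foxc1, Foxd1 and Twist1 and among the lowest pair for 6, and knockout replicate 2 was the lowest for Col3a1, Dcn and Lum. Averaged over the 8 genes, log2 CPM centred on each gene's mean was 0.34 in knockout replicate 1, -0.26 in replicate 2, -0.40 in replicate 3, and 0.03 and 0.02 in replicates 4 and 5. The wild-type libraries averaged 0.19, 0.18, 0.02, 0.03 and -0.15. Wild-type replicate 5 did not follow a single direction: it was the lowest library for Col1a1 (-0.68) and Col1a2, but the second highest for Foxd1 (0.28).

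**Figure D3:**
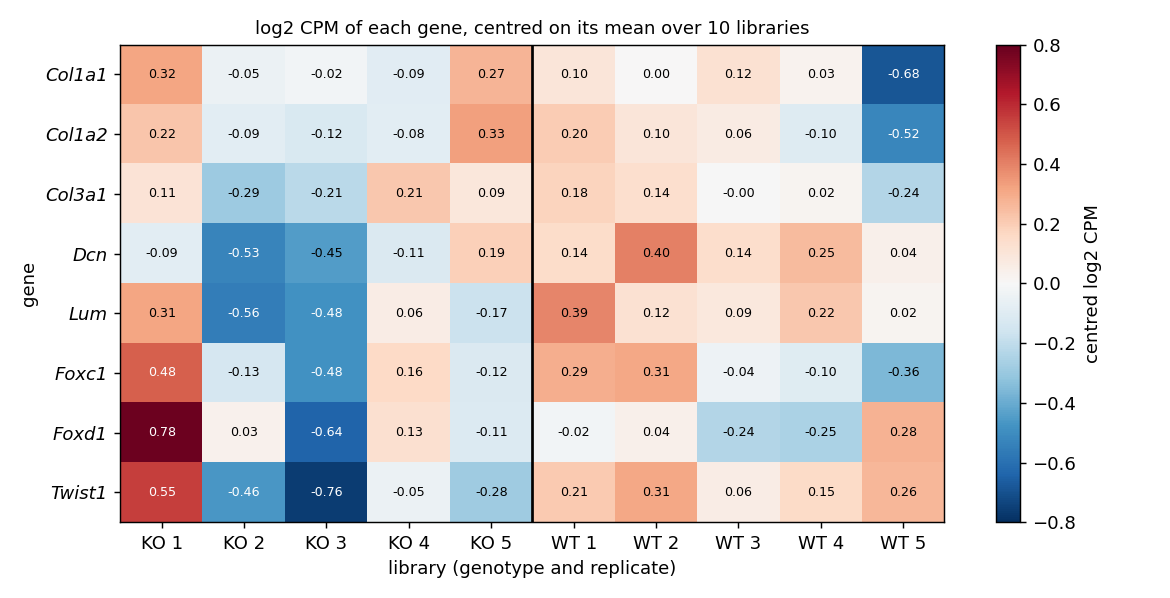
Log2 CPM of the 8 genes (rows) in the 10 libraries (columns, knockout left of the line), each gene centred on its mean over the libraries; red is above and blue below that mean. Knockout replicate 1 is above the mean for every gene except Dcn (-0.09), knockout replicate 3 is below it for all 8, and wild-type replicate 5 is low for Col1a1 (-0.68) and not for Foxd1 (0.28).

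The chains of type I collagen tracked each other more closely than any other pair of the 8 genes. The root mean square difference of their centred log2 CPM over the 10 libraries was 0.09, against 0.17 for the next pair (Lum and Twist1) and 0.46 for the most unlike pair (Col1a1 and Twist1). No gene outside the 8 came as near to Col1a1, the nearest of 15783 such genes of at least 1 CPM being Scn2b at 0.14, a sodium channel subunit gene. For Col1a2 the nearest was Mfsd3 at 0.10. These are descriptions over 10 libraries, in which genotype and size class also vary.

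Ratios taken within a library do not depend on scaling. Counts of Col1a2 relative to Col1a1 had a mean log2 ratio of -0.65 ± 0.06 in knockout and -0.58 ± 0.12 in wild type (SD, n = 5 each), and the difference of -0.07 did not pass (exact permutation test over libraries, two-sided, p = 0.294, adjusted over 3 ratios 0.440). Col3a1 relative to Col1a1 stood at 0.99 ± 0.23 and 1.20 ± 0.21, with 4 of 5 knockout libraries below the wild-type mean (exact permutation p = 0.167, adjusted 0.440). Knockout replicate 4 was the exception, and without it the difference was -0.31 (exact permutation, adjusted p = 0.0476). Taking out the 1 knockout library on the other side widens the difference of necessity. With any other single library left out, the same test gave adjusted p from 0.238 to 0.722. Lum relative to Dcn was 1.86 ± 0.28 and 1.80 ± 0.19 (exact permutation p = 0.706). The smallest p that 5 against 5 libraries allow is 0.00794.

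Levels of different genes can be set beside each other only per length. Divided by the length of the longest coding transcript in GENCODE M21, wild-type levels were 54.2 ± 5.91 CPM per kilobase for Col3a1, 33.0 ± 3.38 for Lum, 22.4 ± 4.48 for Col1a1, 16.6 ± 3.00 for Col1a2 and 13.2 ± 1.30 for Dcn. Col1a1 and Col1a2, and Col1a2 and Dcn, are neighbours in that order whose ranges over libraries overlap, while Col3a1 and Lum stand above the rest beyond their SDs. Within each of the 10 libraries, however, counts of Col1a2 were 0.596 to 0.731 of those of Col1a1. The lengths, 5348 and 5930 bases, are too close to reverse that order in any library. The factors were lower, at 5.34 ± 1.03 CPM per kilobase for Foxc1, 4.13 ± 0.279 for Twist1 and 2.28 ± 0.356 for Foxd1. With the shorter RefSeq gene lengths Foxc1 was at 7.83 ± 1.51 and Foxd1 at 4.68 ± 0.733 CPM per kilobase, so Foxc1 lay above Foxd1 with either length, and the place of Twist1 was not computed with RefSeq. Per length, wild-type Col1a2 stood at 0.743 of Col1a1 and knockout Col1a2 at 0.709.

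Other genes of meninges and mesenchyme, on 6 lists of 102 genes, were taken from the same fit. Of 90 that passed the low-count filter, 12 were lower and 0 were higher in knockout (edgeR), with 78 not past the threshold and a median log2 fold change of -0.14. At an unadjusted p under 0.05, 21 were lower and 2 higher, a smaller share in both directions together than the 33.8% of all genes tested. DESeq2 called 16 lower and 0 higher, and limma-voom 14 lower and 0 higher. The share of lower genes, 13.3%, compares with 9.33% of all genes tested. The genotypes did not overlap for these 12 and for no other of the 90, which is 13.3% of the 90 against 16.7% of all genes tested. Without knockout replicate 1 the count was 22 lower, the same 12 genes with 10 more, and without wild-type replicate 5 it was 12. In the large libraries alone 9 were lower and 3 higher, in the small ones alone 4 passed, and with title code 241022 alone 1 passed.

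Decreases were most numerous among matrix proteoglycans and glycoproteins, where 6 of 18 tested genes fell, 0 rose and 12 did not pass (8 lower and 1 higher at an unadjusted p under 0.05 by edgeR), beside 9.33% lower over all genes tested, with a median log2 fold change of -0.24. Prelp, a leucine-rich repeat proteoglycan of the same family as decorin and lumican, fell from 11.0 ± 2.68 CPM in wild type to 3.49 ± 0.591 CPM in knockout, a log2 fold change of -1.64 ± 0.17 (edgeR adjusted p = 4.47e-05). Ogn, encoding osteoglycin of that family, fell from 8.08 ± 0.656 to 5.10 ± 0.774 CPM (-0.66 ± 0.12, adjusted p = 0.00204). Mfap4, a microfibril-associated glycoprotein gene, fell from 70.8 ± 7.23 to 51.0 ± 6.30 CPM (-0.47 ± 0.09, adjusted p = 0.00257). Mfap2, Postn and Fn1 were the other genes that passed. Members of the decorin family that did not pass included Fmod (-0.33) and Bgn (-0.22), and Omd, Aspn and Kera were below the filter.

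Among genes for the synthesis and processing of collagen 2 of 19 fell and 0 rose, with a median of 0.03. Over all genes tested 9.33% were lower and 12.9% were higher. Plod2, a lysyl hydroxylase gene, stood at 48.4 ± 4.95 CPM in wild type and 34.4 ± 1.54 CPM in knockout (-0.49 ± 0.07 on the log2 scale, edgeR adjusted p = 0.000339). Loxl1, a lysyl oxidase gene whose product cross-links elastic and collagen fibres, went from 15.4 ± 1.86 to 10.9 ± 1.36 CPM (-0.48 ± 0.11, adjusted p = 0.00636). Of 13 further collagen genes tested 0 passed in either direction by edgeR (1 lower and 1 higher at an unadjusted p under 0.05, 1 lower by DESeq2 and 1 lower by limma-voom), and the one with the smallest p was Col16a1 (-0.35 ± 0.13, adjusted p = 0.0721).

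Of 14 further meningeal marker genes tested, 1 fell and 0 rose, with a median log2 fold change of -0.19 and 12 of 14 values below 0. Beside this list and those below, 9.33% of all genes tested were lower and 12.9% higher. Log2 fold changes were above 0 for 48.9% of all genes tested. The gene that fell was Aldh1a2, which encodes a retinoic acid synthesising enzyme of the meninges, from 2.66 ± 0.380 CPM in wild type to 1.49 ± 0.235 CPM (-0.85 ± 0.17 on the log2 scale, edgeR adjusted p = 0.00404). Of 19 head mesenchyme transcription factor genes 2 fell and 0 rose, with a median of 0.06. Runx2, a factor of the bone lineage, went from 2.33 ± 0.221 to 0.910 ± 0.372 CPM (-1.30 ± 0.25, adjusted p = 0.00284), and Msx2, a homeobox gene that is also expressed at the dorsal midline of the telencephalon, from 5.62 ± 1.01 to 2.82 ± 0.922 CPM (-0.97 ± 0.23, adjusted p = 0.00899). Of 7 mesenchymal receptor genes Pdgfra, which encodes a receptor for platelet-derived growth factor on fibroblasts, was the one that fell, from 41.8 ± 5.03 to 30.0 ± 4.81 CPM (-0.47 ± 0.11, adjusted p = 0.0111).

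**Figure D4:**
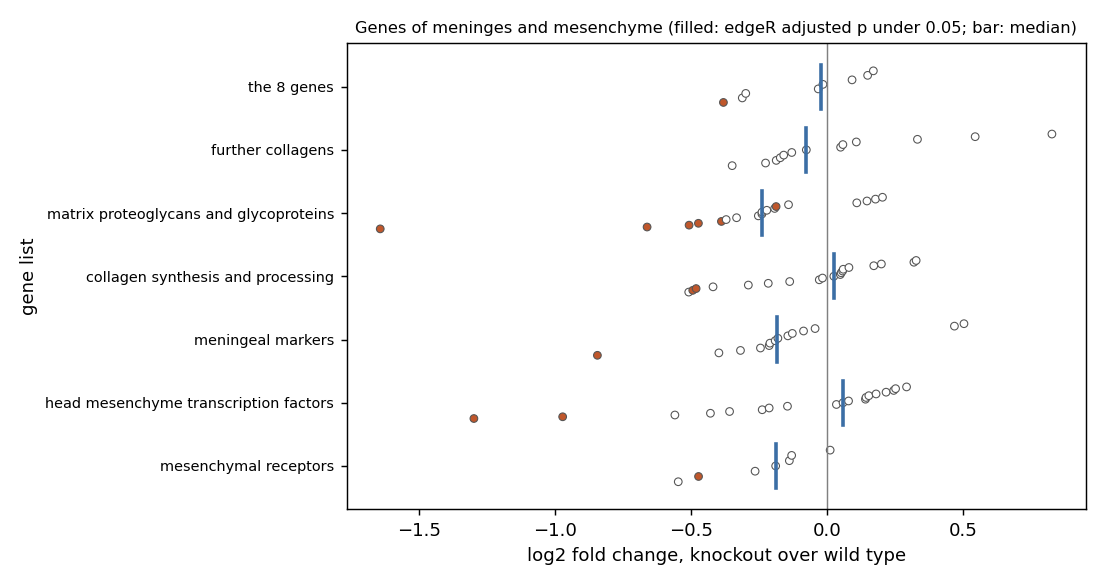
Log2 fold change, knockout over wild type, of each tested gene in the 6 lists and of the 8 genes (top row); filled points passed edgeR's test and vertical bars are list medians. All filled points lie below 0, and the matrix list holds 6 of them with a median of -0.24.

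Markers of other cell types that cortex with attached tissue could hold were summed in each library. Beside the counts of signs below, 48.9% of all genes tested had a log2 fold change above 0. Genes of 1 cell type can vary together between libraries, so such counts are not independent agreements. The 12 endothelial genes summed to 204 to 357 CPM in knockout and 246 to 334 CPM in wild type, with 10 of 12 log2 fold changes below 0, 0 genes past the threshold (4 lower and 0 higher at an unadjusted p under 0.05 by edgeR, 0 called by DESeq2 or limma-voom) and none at 0 counts. Their sum was highest in knockout replicate 1 and lowest in knockout replicate 3, which are the libraries at the extremes for Foxc1, Foxd1 and Twist1. Mural cell genes, 12 in number and none at 0, ranged from 225 to 279 CPM in knockout and from 236 to 273 CPM in wild type, again with knockout replicate 1 highest and replicate 3 lowest. Rgs5, named after its value was seen, was the one mural gene that passed (log2 fold change -0.49, edgeR adjusted p = 0.0123). The part of vascular cells in the levels of the 8 genes was not tested.

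The 9 erythroid genes all had log2 fold changes above 0 (median 0.35), with 0 past the threshold by edgeR, DESeq2 or limma-voom and 1 higher at an unadjusted p under 0.05 by each. Their sum also peaked in knockout replicate 1, at 7599 CPM, and ran from 2388 CPM upward in the other knockout libraries and from 2306 to 5631 CPM in wild type. The 10 genes of microglia and macrophages summed to 44.5 to 64.8 CPM and 51.0 to 69.0 CPM, with all 10 log2 fold changes below 0 and 0 past the threshold by edgeR (2 lower and 0 higher at an unadjusted p under 0.05, 1 lower by DESeq2, 0 by limma-voom). The 16 further meningeal markers summed to 237 to 386 CPM in knockout and 288 to 353 CPM in wild type, and the order within the knockout group, replicate 1 highest and replicates 2 and 3 lowest, was that of Lum and Twist1 as well. The lists of neural crest glia (11.8 to 18.6 CPM in knockout and 12.3 to 16.1 CPM in wild type) and surface ectoderm (2.84 to 8.89 and 7.04 to 11.7 CPM) overlapped between the genotypes, and Krt18 of the latter was lower (log2 fold change -1.04 ± 0.26, edgeR adjusted p = 0.0132). The part of these cells in the levels of the 8 genes was not tested.

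The summed levels of 4 lists did not overlap between the genotypes, whereas those of the 8 genes did. The 8 choroid plexus genes summed to 60.0 to 92.0 CPM in knockout and 260.1 to 310.5 CPM in wild type, with 6 lower and 0 higher by edgeR, DESeq2 and limma-voom alike. Most of the knockout sum was Otx2, which did not pass (59.3 ± 14.9 CPM in knockout, 61.4 ± 16.2 CPM in wild type, edgeR adjusted p = 0.933). Ttr, the largest part of the wild-type sum, stood at 116 ± 17.9 CPM in wild type and 2.55 ± 1.41 CPM in knockout. The 12 genes of cortical neuroepithelium summed to 4373 to 4889 CPM and 3653 to 4060 CPM, with 8 higher and 0 lower by edgeR. Cartilage and bone genes summed to 92.4 to 137 CPM and 161 to 189 CPM, nearly all of it Col2a1, which stood at 112 ± 18.6 CPM in knockout and 172 ± 11.1 CPM in wild type (-0.62 ± 0.10 on the log2 scale, edgeR adjusted p = 0.00160). The other tested genes of that list did not pass and had values above 0, with Col9a1 at 0.63 ± 0.25 (edgeR adjusted p = 0.0992) and Sp7 at 0.04 ± 0.28. Acan, Matn1, Comp, Ibsp and Bglap were below the filter, so the separation of this list rests on Col2a1. Skeletal muscle genes summed to 0.692 to 2.43 CPM and 3.34 to 7.83 CPM, and Pax7 was lower (-3.38 ± 0.47, edgeR adjusted p = 0.000427). Most of the wild-type sum was Pax7, at 4.15 ± 1.88 CPM in wild type and 0.348 ± 0.310 CPM in knockout. Tnnt1, the other tested gene of that list, did not pass (-0.02 ± 0.32, edgeR adjusted p = 0.979). Myod1, Myf5, Myog and Myf6 were below the filter, so the separation rests on Pax7. Otx2, Ttr, the cartilage and bone genes and the skeletal muscle genes were named after their values were seen.

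**Figure D5:**
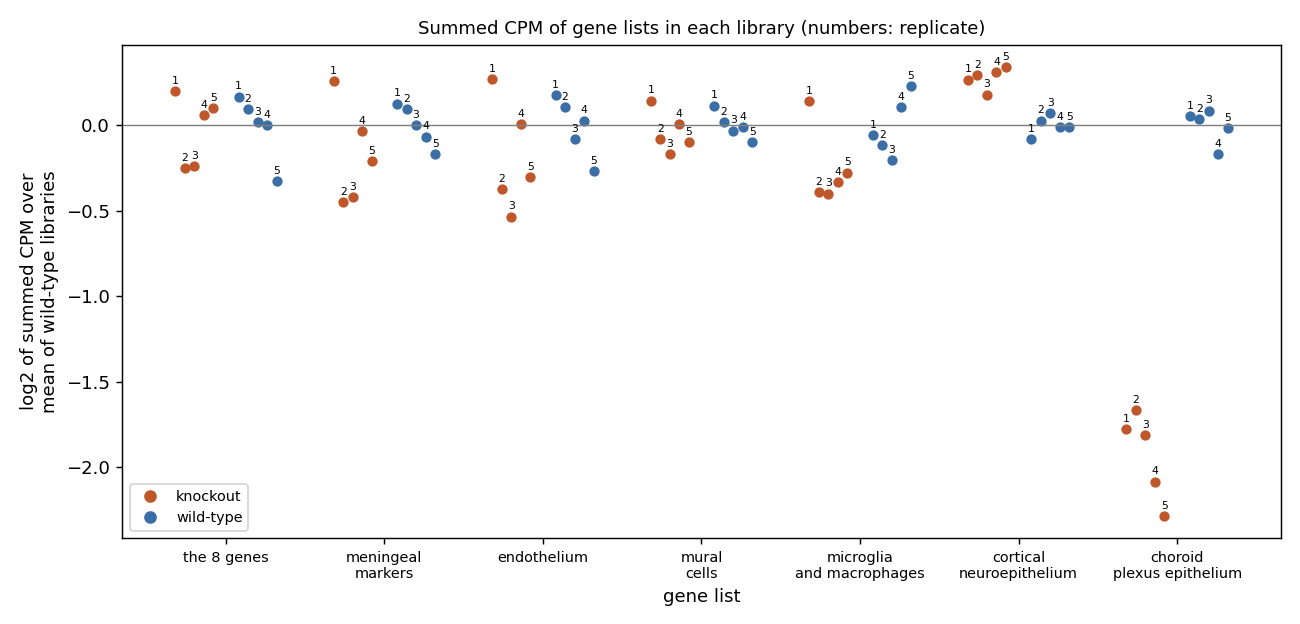
Summed CPM of 7 gene lists in each library, as log2 relative to the mean of the 5 wild-type libraries; numbers are replicates. The choroid plexus list (60.0 to 92.0 against 260.1 to 310.5 CPM) and the cortical neuroepithelium list separate the genotypes, while the 8 genes, meningeal markers, endothelium and mural cells overlap, with knockout replicate 1 highest among the knockout libraries for these 4.

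The genes most like the 8 in profile were sought over the 10 libraries among 15783 others of at least 1 CPM, by the root mean square difference from the mean centred profile of the 8. The 8 nearest, at 0.06 to 0.09 log2 units against a median of 0.27, were Lrrk1, Rassf8, Pear1, Itpripl2, Nid1, Ddr2, Cxcl12 and Foxo1. Nid1 encodes the basement membrane protein nidogen-1, Ddr2 a receptor for fibrillar collagen and Cxcl12 a chemokine made by meningeal cells. None of these 8 differed between genotypes by edgeR (adjusted p from 0.304 for Foxo1 to 0.875 for Cxcl12, log2 fold changes from -0.19 to -0.04). They were picked for nearness to a profile over the same 10 libraries. Fold changes close to that of the profile therefore follow from the choice and are no separate result. Taken one at a time, Lum was nearest to Esam (0.07), an endothelial adhesion gene, and Foxc1 to Acvrl1 (0.06), an endothelial receptor gene of the TGF-beta family. Dcn was nearest to Kit (0.12), Twist1 to Selenop (0.11), Col3a1 to Uaca (0.09) and Foxd1 to Creg1 (0.10).

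Split by library size, Foxd1 had values of opposite sign, with knockout means of 15.0 CPM in the large and 9.18 CPM in the small libraries against 9.89 and 12.6 CPM in wild type. The log2 fold changes were 0.61 and -0.45, and neither passed (edgeR adjusted p = 0.132 and 0.249). Foxc1 showed the same pattern (0.26 and -0.40), and Twist1 went from -0.03 in the large to -0.77 in the small libraries (edgeR adjusted p = 0.963 and 0.103). Dcn stayed lower in both (-0.43 and -0.30), without passing in either (edgeR adjusted p = 0.0612 and 0.461). By the code that ends the sample titles, Dcn gave -0.57 for 241022 and -0.30 for 14922, and the single pair of 31022 held 18.7 CPM in knockout and 20.7 CPM in wild type. A difference of the genotype effect between codes 241022 and 14922 passed for 0 of the 8 genes (edgeR interaction in 8 libraries, adjusted p from 0.932 to 0.985, and 0 at an unadjusted p under 0.05), beside 1.53% of 18431 genes. Within a code the genotypes share no size class and within a size class no code, so code, size class and genotype cannot be told apart in these splits.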

How the data were processed

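RNA was measured by sequencing in 10 cortex libraries, grouped by the genotype label. Named in the submitters' processing notes are featureCounts 1.6.3-p1, STAR 2.7.8a and bcl2fastq 2.20, and as builds GRCm39 and rn6. For strand setting and annotation, details are not given in the sources used here. Raw counts per gene, not normalized, are what the authors deposited. The 8 genes and all lists were chosen with earlier results of these data known.

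Identifiers were matched to symbols (52073 of 56748). Genes were filtered with filterByExpr (minimum count 10), scaled by TMM and tested with edgeR 4.0.16 in R 4.3.3 (two-sided quasi-likelihood F test, robust moderation, a model of genotype alone). The 18163 p-values were adjusted by Benjamini-Hochberg, with a threshold of 0.05. The SE was derived from the F statistic. Centred profiles used log2 CPM with a prior count of 2, and ratios had 0.5 added to each count. Named genes were the 8, up to 3 genes of each list past the threshold by smallest p (the first by p where none passed), and the nearest profiles. The procedure was tested on simulated counts. Twist1 had the fewest counts of the 8 genes, 46 to 262 per library, while the SE was largest for Foxd1 (0.22). The part of counting noise in the spread was not separated. Alternatives were other scalings, filters and blocks, single codes and size classes, each library left out, DESeq2 1.42.0 and limma-voom (limma 3.58.1); ordinary moderation was added after the data were seen. Transcript lengths came from GENCODE M21 on GRCm38.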

Additional observations from a re-analysis of the deposited data

Results flagged for a closer look

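In 4 of 68 groups of 5 libraries (34 named genes, both genotypes) 1 library stood apart, judged by its distance from the nearest other library as a share of the whole range (critical value 0.710). Chance flags about 1 group in 20. The Col1a1 level of wild-type replicate 5 was low (ratio 0.819, 86.0 CPM against 139 in the next library). Among the wild-type libraries, replicate 5 was the lowest for 2 genes near the mean profile of the 8. These were Rassf8 (ratio 0.800, 29.9 against 34.5 CPM) and Itpripl2 (ratio 0.720, 19.7 against 22.7 CPM). Both were picked for nearness to that profile, in which replicate 5 is the lowest wild-type library (-0.15). Their low values there are not separate from those of the 8, and the rate for chance does not allow for such a choice. Among the knockout libraries, replicate 2 was the lowest for Scn2b (ratio 0.745, 10.5 against 12.7 CPM).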

How the results depend on the processing

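The count of the 8 genes past the threshold, 1 as reported, was 0 without an expression filter, with the title code as a replicate block, with size class as a block, with title code 241022 or 14922 alone, in the large or the small libraries alone, at an adjusted p threshold of 0.01 and with ordinary moderation. It ranged from 0 to 2 when 1 library was left out, and stayed at 1, Dcn, under RLE, upper-quartile or total-count scaling, the filter at 1 CPM, DESeq2 and limma-voom. The other mesenchymal genes numbered 12 as reported, 1 with title code 241022 alone and 4 in the small libraries alone, and 11 to 22 when 1 library was left out. All genes called numbered 4039 as reported, 530 and 1710 with codes 241022 and 14922 alone, 626 in the small libraries and 2181 at the stricter threshold. Higher and lower calls were 2345 and 1694 with TMM, 1899 and 2245 with upper-quartile scaling, and 1786 and 2464 with total counts. The interaction between codes gave 282 genes, and 917 without a filter. The difference of log2 ratios, knockout minus wild type, was 0.053 (Col1a2 to Col1a1) and 0.018 (Col3a1 to Col1a1) in the large libraries, against -0.14 and -0.41 in the small ones, and -0.18 (Lum to Dcn) in the small ones. Leaving out 1 library gave -0.31 to -0.13 for Col3a1 to Col1a1. No called direction reversed for the 8 or for the 26 other named genes under the 25 alternatives. Where calls changed, the cause was not tested. Replicate numbers follow accession order and pair no libraries, so the block is the title code.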
